A study of Mus musculus with 5 samples.

Results

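A stretch of mouse chromosome 2 around a single feature with nearly all of its reads in Adcy5 knock-in striatum was described: every counted feature whose span overlaps chromosome 2 from 68103384 to 108110219, that is 20 Mb on either side of the feature ENSMUSG00000075132. That feature is called KI-only below, although 1 WT library held 1 count. The window was chosen by the KI and WT counts of that feature, so its own values are given as a description without a test. The window holds 881 of the 53700 features counted. The data are RNA-seq counts from homogenates of the striatum of adult mice, with 2 libraries of the knock-in line (KI, replicates 1 and 3), which carries Adcy5 R419W, and 3 of littermates without it (WT, replicates 1 to 3). The groups differ by that allele of Adcy5, which encodes the enzyme that makes most of the cAMP in striatal neurons. The labels do not give zygosity, exact age or background strain, and they name no treatment.

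Adcy5 lies on another chromosome, so nothing in the window is the targeted gene. Total counts ranged from 6595105 to 7910584 per library. Whether each library came from its own mouse is not said, so p-values measure the spread between libraries, which may be technical. KI replicate 3 stood apart by Ttr, a choroid plexus gene, at 2093 CPM (counts relative to each library's scaled total) against 28.0 to 61.8 CPM in the other 4 libraries. WT replicate 1 had less Slc17a7, the glutamate transporter of cortical neurons (73.6 CPM, against 286.7 and 210.3 CPM in the other WT libraries). Both KI libraries were also below those other WT libraries, at 96.1 CPM in KI replicate 1 and 22.0 CPM in KI replicate 3. The striatal marker genes that could be read (Penk, Tac1, Rgs9 and Pde10a, 4 of 11) were present in every library, with a summed level of 8281 to 10790 CPM in WT and 6966 to 7672 CPM in KI. Penk makes up most of this sum, and Tac1 did not follow it, at 746.3 to 1007 CPM in WT and 985.5 to 1030 CPM in KI. In such bulk samples fewer cells of a type and less RNA per cell cannot be told apart.

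The window carries a large cluster of olfactory receptor genes, the receptors of odour-sensing neurons of the nose, which are normally silent in brain tissue. On either side of the cluster lie genes of ordinary neuronal use. Gad1 makes the enzyme that produces the transmitter GABA, which the output neurons of the striatum release, and Rapgef4 encodes EPAC2, a protein that binds cAMP directly and switches on the small GTPase Rap. The homeobox genes of the Hoxd cluster, which pattern limbs and the hind part of the embryo, are also here.

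Features are named by position. The features were drawn on GRCm39, but by where the counts fall the reads appear to lie at positions of the GRCm38 build. This is an inference, since the build of the alignment is not given, and every gene name and exon statement below rests on it. A feature's label in the files then often names a neighbour. For the 866 window features with the same gene ID in GENCODE M21 (the GRCm38 annotation), the GRCm38 gene starts 162788 to 169755 bases higher. The feature labelled Gad1 (9.19 CPM on average) lies over exons of Myo3b, whereas the feature over Gad1's own GRCm38 exons, labelled Tlk1, had 270.1 CPM. Of the 881 features, 280 could be named by 1 GRCm38 gene, 39 overlap exons of more than 1 gene and 562 have no GRCm38 exon at their positions. A named feature can cover many more bases than the exon bases given below, so its counts need not all be those of the gene. A total of 586 had 0 counts in all 5 libraries and 211 had a summed count of at least 10. The filter on low counts passed 148 features, of which 94 are named and cover 66 genes. Of the 483 protein-coding genes in the window, 59 were tested under their own name, so most of them are not described here.

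For 6 of the genes that leaned most towards one group, the 250 bases before the start are printed from the RefSeq promoters (GRCm38.p6), so that the starts behind the values below can be seen. Capitals mark a GC box (GGGCGG or its complement CCGCCC), the element bound by Sp transcription factors. The first 5 belong to genes with lower values in KI and the last 2 to genes with higher values. Chn1 has 2 listed starts, and the second lies within the span of the feature that reads it.

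Itgav, chr2:83724147-83724396, plus strand: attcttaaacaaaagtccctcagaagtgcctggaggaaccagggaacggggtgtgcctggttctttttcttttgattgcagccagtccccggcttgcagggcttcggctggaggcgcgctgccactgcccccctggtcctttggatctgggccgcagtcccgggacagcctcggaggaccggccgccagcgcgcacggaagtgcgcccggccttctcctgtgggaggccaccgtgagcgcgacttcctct
Celf1, chr2:90940147-90940396, plus strand: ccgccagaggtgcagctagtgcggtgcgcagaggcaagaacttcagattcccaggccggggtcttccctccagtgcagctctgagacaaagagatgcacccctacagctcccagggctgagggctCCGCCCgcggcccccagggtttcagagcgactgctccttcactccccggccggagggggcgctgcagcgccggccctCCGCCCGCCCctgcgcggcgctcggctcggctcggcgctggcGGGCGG
Chn1, first start, chr2:73775347-73775596, minus strand: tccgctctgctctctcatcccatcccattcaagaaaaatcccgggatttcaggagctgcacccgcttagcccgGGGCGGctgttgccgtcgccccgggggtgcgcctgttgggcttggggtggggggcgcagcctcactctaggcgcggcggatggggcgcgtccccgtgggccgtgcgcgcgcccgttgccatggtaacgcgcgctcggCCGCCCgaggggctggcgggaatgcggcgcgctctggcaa
Chn1, second start, chr2:73660424-73660673, minus strand: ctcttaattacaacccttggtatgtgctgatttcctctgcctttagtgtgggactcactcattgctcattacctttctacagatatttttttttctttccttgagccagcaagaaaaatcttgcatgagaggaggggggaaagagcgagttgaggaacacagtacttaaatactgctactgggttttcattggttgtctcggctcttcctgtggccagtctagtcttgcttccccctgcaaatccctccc
Ndufs3, chr2:90904722-90904971, minus strand: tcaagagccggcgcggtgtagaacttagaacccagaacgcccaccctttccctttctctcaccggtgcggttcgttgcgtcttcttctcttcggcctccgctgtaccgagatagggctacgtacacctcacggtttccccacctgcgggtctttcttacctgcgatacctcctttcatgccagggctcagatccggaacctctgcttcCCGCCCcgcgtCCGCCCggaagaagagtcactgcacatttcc
Ambra1, chr2:91729888-91730137, plus strand: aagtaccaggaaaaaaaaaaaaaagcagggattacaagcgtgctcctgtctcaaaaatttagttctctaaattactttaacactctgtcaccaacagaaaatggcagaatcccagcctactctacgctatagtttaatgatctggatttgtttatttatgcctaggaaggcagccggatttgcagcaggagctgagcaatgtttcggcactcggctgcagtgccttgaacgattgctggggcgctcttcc
Myo3b, chr2:70038876-70039125, plus strand: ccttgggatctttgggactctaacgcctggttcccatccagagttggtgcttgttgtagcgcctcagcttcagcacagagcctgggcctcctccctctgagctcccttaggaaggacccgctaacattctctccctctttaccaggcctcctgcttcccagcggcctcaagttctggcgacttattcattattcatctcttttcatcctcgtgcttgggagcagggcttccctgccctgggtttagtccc

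A GC box stands 4 times before Celf1 and 2 times each before the first start of Chn1 and before Ndufs3. The promoters of Itgav, Ambra1 and Myo3b and the second start of Chn1 hold 0. Over all 20 promoter entries of the 16 leaning genes with one, 11 hold a GC box on either strand, beside 32.74% of the 32851 RefSeq promoters of this length. The cAMP response element TGACGTCA is in 0 of the 20 (1.55% of all). Its core TGACG, which is part of the full element, is in 7 of the 20 (17.77% of all), among the promoters not printed: those of Phf21a, Qser1, Nat10, Dcaf17, Mettl8, Cstf3 and Mtch2. The windows of Dcaf17 and Mettl8 overlap and share bases. The 20 entries belong to genes that passed the filter on low counts, whereas the 32851 were not chosen by their counts, so the shares are not like for like. These are matches of letters in 250 bases and say nothing about binding.

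The feature that centres the window held 0, 1 and 0 counts in WT replicates 1, 2 and 3, and 6540 and 2357 counts in KI replicates 1 and 3. Scaled, the KI libraries stood at 886.2 and 291.9 CPM, and the only WT library with a count at 0.13 CPM. Both KI libraries were therefore far above all WT libraries, and they also differed from each other by 3.04-fold. In KI replicate 1 this was the feature with the most counts in the whole window and in KI replicate 3 the fourth, and it made up 12.9% and 4.6% of all window counts there. Without it the window held 0.605% and 0.617% of all counts in the KI libraries and 0.610% to 0.641% in the WT libraries.

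The reads at this feature fall between annotated genes. It consists of 2 stretches, 88103384 to 88108746 (5363 bases) and 88110191 to 88110219 (29 bases), and in GENCODE M21 neither lies in an exon or an intron of any gene. The pseudogene Olfr1165-ps ends 1398 bases before it, and the receptor gene Olfr1166 starts 13140 bases after it. The files label the feature Olfr1173, but the GRCm38 gene of that name lies at 88273040 to 88279875. The 1 feature over the exons of that gene held 0 counts in all libraries. Strand was ignored in the counting, so the strand of these reads is unknown.

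The surroundings of the feature were almost without reads. Within 1 Mb on either side lie 131 other features, of which 8 had any count, and their summed counts were 7, 10 and 6 in WT and 0 and 1 in KI. The nearest tested features lie 2.14 Mb before it and 2.43 Mb after it. The first, labelled Olfr1039 and over no exon, stood at 2.76, 0.67 and 3.67 CPM in WT, against 3.25 and 1.36 CPM in KI. The second, inside Ptprj and over no exon, stood at 0.13, 4.41 and 0.61 CPM in WT, against 1.49 and 5.82 CPM in KI. In both, the 2 groups overlapped.

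The olfactory receptor genes themselves held almost no counts by position. Of its 286 GRCm38 genes in the window, 142 features cover exons, and those held 6 counts over all 5 libraries, with 4 in the highest. None of these features passed the filter on low counts. Among the markers of olfactory sensory neurons 2 of 5 could be read, with a summed level of 0.26 to 2.41 CPM in WT and 2.48 to 4.74 CPM in KI, and none of these was at 0 over all libraries. Omp, the defining marker, stood at 0.26, 0.80 and 1.53 CPM in WT, against 3.39 and 2.23 CPM in KI. That is 2, 6 and 10 counts in WT against 25 and 18 in KI, so both KI libraries were above all WT libraries. Adcy3, the other marker read, stood at 0, 1.604 and 0.612 CPM in WT, against 1.355 and 0.248 CPM in KI, and its groups overlapped. The part of these cells in the KI-only counts was not tested.

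A single feature of all 53700 had at least 20 counts in each KI library and at most 1 in each WT library. It is the one whose counts chose the window, so this is a description. The reverse, at least 20 counts in each WT library and at most 1 in each KI library, was met by 0 features. Other limits were chosen after the values were seen: at least 15 counts in each library of 1 group and 0 in each of the other. In the KI direction 0 features met these, since the KI-only feature held 1 WT count. In the WT direction 1 feature of 53700 met them, and it also lies in the window, 4.31 Mb before the KI-only feature. It is labelled Gm13695, spans 83797657 to 83800149 and lies inside the gene Itgav but over none of its exons. Its counts were 27, 17 and 22 in WT and 0 and 0 in KI. The level that 3 counts over both KI libraries would give is 0.198 CPM, and pooled WT (3.00 CPM) was 15.2-fold that level. This ratio leaves out the error of the WT counts and the spread between libraries. The feature passed the filter on low counts through its WT libraries. As it was picked for this pattern, no test of it is given here, but it stays among the tested window features counted below.

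**Figure D1:**
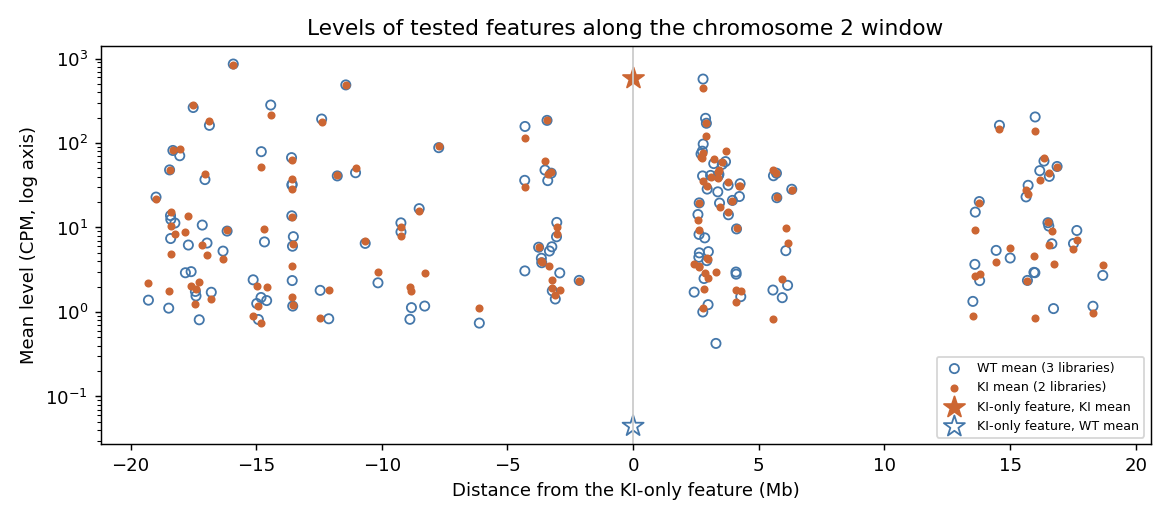
Mean level in CPM (log axis) of the 148 tested features against their distance from the KI-only feature in Mb, with WT means as open blue circles and KI means as orange points (a KI mean of 0 is not drawn) and stars for the KI-only feature itself. No other tested feature lies within 2 Mb of the star, which sits at 0.0446 CPM in WT and 589.0 CPM in KI.

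Itgav encodes integrin alpha V, a cell surface receptor for matrix proteins such as vitronectin. The gene lies at 83724397 to 83806916 on the plus strand. Its 3' untranslated region is read over 2493 bases by the feature labelled Gm13696, which stood at 162.1, 148.9 and 159.8 CPM in WT, against 114.1 and 113.1 CPM in KI. Both KI libraries were below all WT libraries, by 1.38-fold in the fit (log2 fold change -0.47, SE 0.13), but the edgeR adjusted p was 0.2477. A second feature over 321 coding bases of Itgav stood at 42.4, 31.4 and 34.6 CPM in WT, against 30.2 and 29.3 CPM in KI. Here too both KI libraries were below all WT libraries (edgeR log2 fold change -0.28, SE 0.22, adjusted p = 0.9656). Neither of these 2 features over Itgav's exons passed the test.

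**Figure D2:**
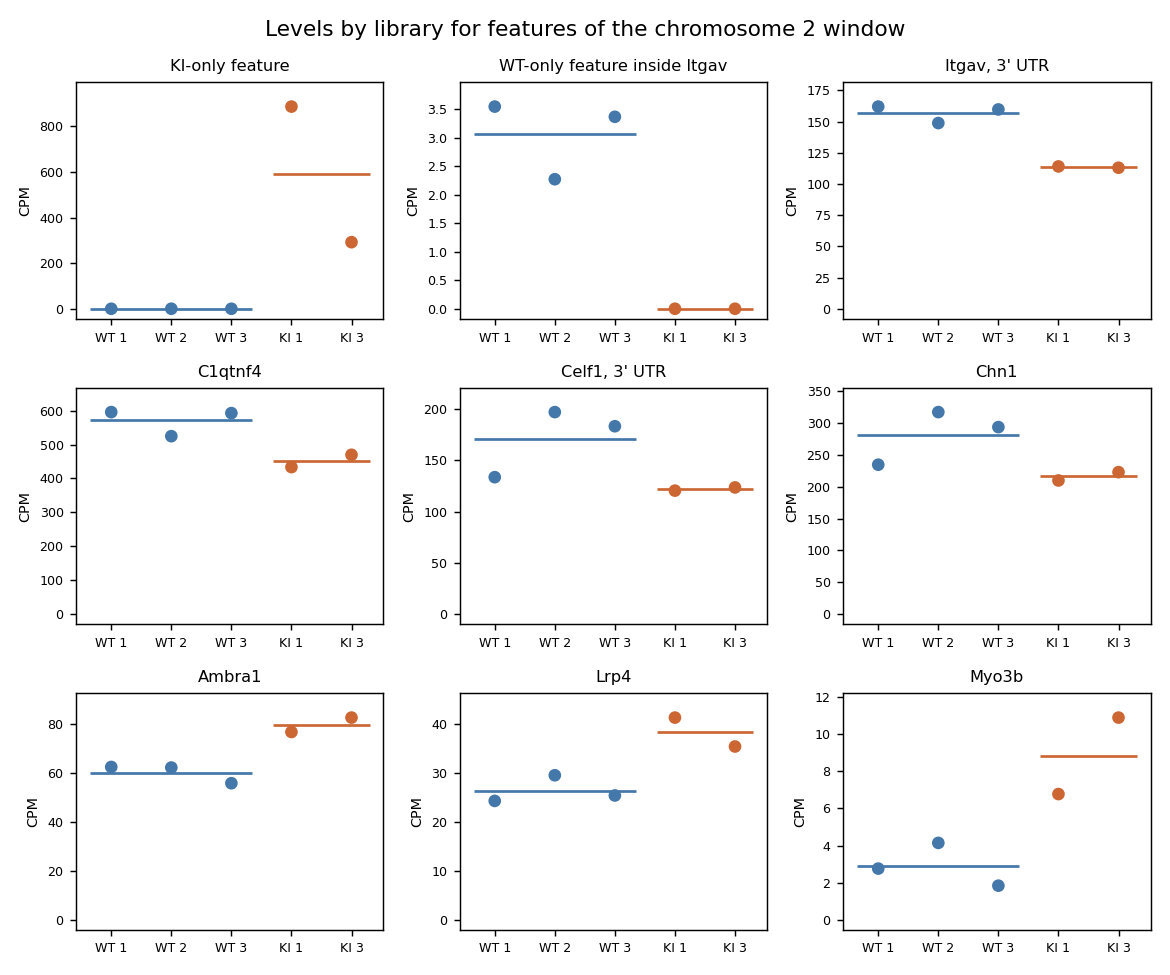
CPM in each library for 9 features of the window, each on its own linear axis, with WT in blue, KI in orange and a line at each group's mean. In all 9 the 2 KI libraries lie beyond the 3 WT libraries; the KI-only feature reaches 886.2 CPM and the feature inside Itgav without an exon is at 0 in both KI libraries.

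Apart from the KI-only feature, 0 of 147 tested window features passed the edgeR quasi-likelihood test at an adjusted p under 0.05, where 0.102% of all 13665 tested features did (14 features). The 1 call in the window (1 of 148, 0.676%) is the KI-only feature, and nothing is read from it because its counts chose the window. DESeq2's Wald test called 0 of the 59 others to which it gave an adjusted p, and limma voom 0 of 147, where DESeq2 called 1.74% of the 6953 features with an adjusted p and limma voom 0.381% of all 13665. At an unadjusted p under 0.05 there were 15 of 147 (10.2%), 6 higher (4.08%) and 9 lower (6.12%) in KI, beside 6.4% over all features (2.68% higher, 3.72% lower). On the rest of chromosome 2 it was 4.86% of 905 features (1.99% higher, 2.87% lower). In 38 of the 147 (25.9%) both KI libraries lay beyond all WT libraries, 12.2% above and 13.6% below, beside 22.4% over all features (11.3% and 11.1%) and 22.4% on the rest of chromosome 2 (12.2% and 10.3%). No test of the window's share was made. Of the 15 features 2 lie in Myo3b and 2 in Itgav. Those in Itgav are the feature over its 3' untranslated region and the feature over no exon that has no KI counts. The latter was picked for that pattern after its values were seen. It is also 1 of the 9 lower features and 1 of those with both KI libraries below all WT libraries, so these shares include it. Without WT replicate 1, 3 of the others were called.

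The median log2 fold change of the 147 was 0.00, with 74 higher and 73 lower, beside 0.00 over all features. The quartiles were -0.34 and 0.22 in the window and -0.23 and 0.24 over all features. By stretches of 5 Mb the median was 0.02, 0.00, 0.33 and -0.01 before the KI-only feature and -0.01, 0.13, -0.47 and -0.03 after it. The values of 0.33 and -0.47 rest on 8 and 7 features. Of the 15 leaning features, 6 lie in the 5 Mb after the KI-only feature, which also holds the most tested features (38).

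**Figure D3:**
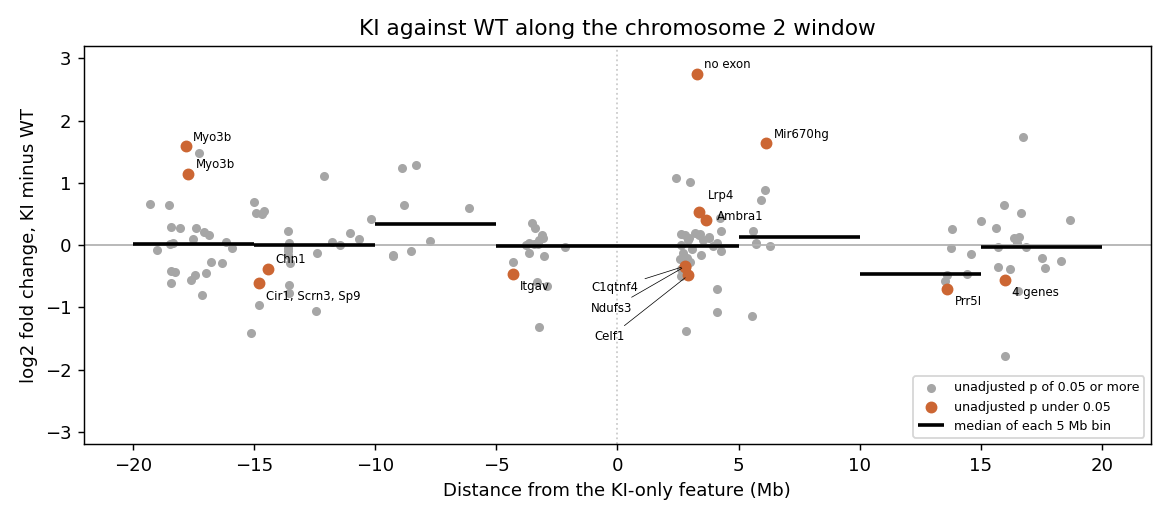
log2 fold change (KI minus WT) of tested features against distance from the KI-only feature in Mb, with orange points for an unadjusted p under 0.05, grey points for the others and black bars for the median of each 5 Mb bin. The KI-only feature and the feature with 0 KI counts inside Itgav are left out because their fitted values rest on 0 or 1 count in a group; orange points lie on both sides of 0 and at both ends of the window.

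**Figure D4:**
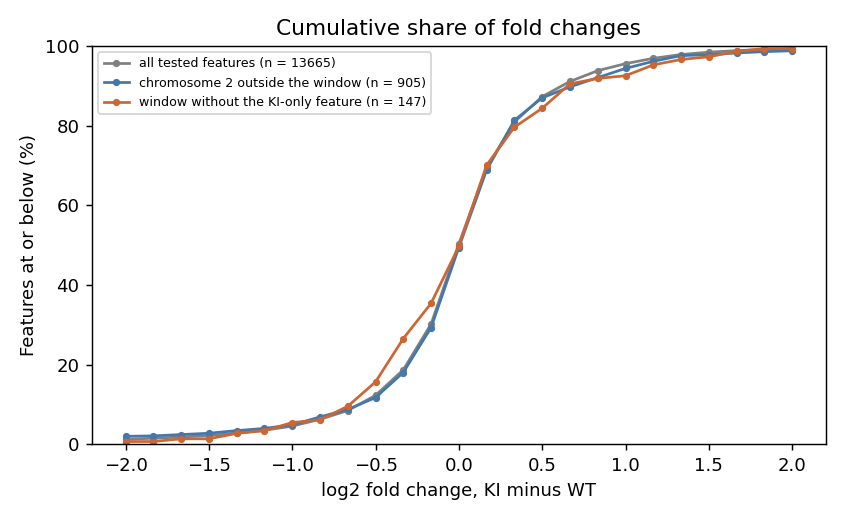
Share of features (%) at or below each log2 fold change (KI minus WT) for all tested features in grey, chromosome 2 outside the window in blue and the window without the KI-only feature in orange. The lines run close together, with 15.6% of the window at or below -0.5 beside 12.3% of all features.

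Among the named genes lower in KI, 3 besides Itgav lie close together, 2.78 to 2.92 Mb after the KI-only feature. C1qtnf4, which encodes a secreted protein of the C1q and TNF related family, had 982 CPM per kilobase of exon read, the first of 34 features that lie over exons of 1 gene alone with at least 300 bases. It stood at 595.6, 524.7 and 592.6 CPM in WT, against 433.6 and 469.8 CPM in KI (edgeR log2 fold change -0.34, SE 0.11, adjusted p = 0.4472). Its neighbour Ndufs3, a subunit of respiratory complex I, stood at 91.3, 95.8 and 104.2 CPM in WT, against 74.4 and 78.5 CPM in KI (edgeR log2 fold change -0.34, SE 0.14, adjusted p = 0.6935). In both genes the KI libraries were below every WT library. With the replicate number as a block C1qtnf4 passed (edgeR adjusted p = 0.03232); the numbers are not known to pair the libraries.

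Celf1 encodes an RNA-binding protein that controls splicing and the stability of messenger RNA. Its 3' untranslated region, read over 631 bases, stood at 133.6, 197.0 and 183.2 CPM in WT, against 120.5 and 123.6 CPM in KI (edgeR log2 fold change -0.49, SE 0.16, adjusted p = 0.4741). Over 469 bases of its coding and untranslated exons the levels were 158.4, 222.8 and 206.6 CPM in WT, against 168.0 and 173.1 CPM in KI, and there WT replicate 1 lay below both KI libraries. The remaining feature over Celf1 had a log2 fold change of -1.38 (SE 0.79) and overlapping groups. Chn1 encodes a chimaerin, which turns off the GTPase Rac in growing axons. Its feature also covers the antisense gene Chn1os1. It holds 150 untranslated bases of Chn1 among 8187 bases in all, so its counts may not be those of Chn1. The feature stood at 234.3, 316.8 and 293.3 CPM in WT, against 209.6 and 222.7 CPM in KI (edgeR log2 fold change -0.38, SE 0.14, adjusted p = 0.5673). For Celf1 and Chn1, WT replicate 1 was the WT library nearest to KI, and without it both passed (edgeR adjusted p = 0.0133 and 0.03905).

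In the summed cortical neuron markers too, WT replicate 1 was the lowest WT library and WT replicate 2 the highest. Of 7 markers 3 could be read, none of them at 0. Their summed level was 386.8, 830.4 and 679.9 CPM in WT, against 455.6 and 422.4 CPM in KI. Camk2a makes up most of this sum in every library. It stood at 311.7, 511.6 and 439.6 CPM in WT, against 352.9 and 398.6 CPM in KI, so both KI libraries lay within the WT range. The summed striatal markers likewise had WT replicate 1 as the lowest WT library and WT replicate 2 as the highest. The part of either set of markers in the values of Celf1 and Chn1 was not tested. WT replicate 1 was the highest WT library in Itgav and C1qtnf4 and the lowest in Ndufs3. The part of cell types in the values of these genes was not tested either.

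Prr5l, which encodes a partner of the kinase complex mTORC2, stood at 14.8, 14.6 and 16.2 CPM in WT, against 9.62 and 9.04 CPM in KI over 73 untranslated bases (edgeR log2 fold change -0.70, SE 0.31, adjusted p = 0.7576). Its feature covers 1602 bases in all, so these counts may not be those of Prr5l. Both KI libraries were also below all WT libraries in 1 feature each of Mettl8, Cstf3, Mtch2 and Lnpk, with log2 fold changes from -0.80 to -0.26 and edgeR adjusted p from 0.8097 to 0.9513. Mtch2, a protein of the outer mitochondrial membrane, stood at 80.0, 77.0 and 83.1 CPM in WT, against 74.8 and 59.3 CPM in KI.

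Among the named genes higher in KI, Myo3b leaned in 2 separate features. It encodes a class III myosin, a motor known from the hair cells of the inner ear. Over 206 coding bases it stood at 2.76, 4.14 and 1.84 CPM in WT, against 6.78 and 10.9 CPM in KI, 3.01-fold higher in the fit (edgeR log2 fold change 1.59, SE 0.53, adjusted p = 0.4756). Over 108 untranslated bases it stood at 6.17, 4.01 and 8.42 CPM in WT, against 12.9 and 14.5 CPM in KI (edgeR log2 fold change 1.14, SE 0.40, adjusted p = 0.5082). Both KI libraries were above all WT libraries in each. The second feature covers 7639 bases in all, so the exon part is a small share of what it can count.

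Mir670hg, the host transcript of the microRNA miR-670, was likewise higher in both of its tested features. That over 86 exon bases stood at 2.63, 1.74 and 1.84 CPM in WT, against 5.42 and 7.55 CPM in KI (edgeR log2 fold change 1.64, SE 0.60, adjusted p = 0.5639). The other stood at 8.80, 3.47 and 3.67 CPM in WT, against 11.7 and 8.05 CPM in KI, where WT replicate 1 lay between the KI libraries (log2 fold change 0.88, SE 0.49). The feature over 86 exon bases covers 4545 bases in all, so its counts may not be those of the host transcript. They do not read the microRNA. The mature sequences that the host carries are shown with the seed, bases 2 to 8, in capitals, from RefSeq (GRCm38.p6), at chr2:94261358-94261379 for the 5p arm and chr2:94261316-94261340 for the 3p arm on the minus strand. The 2 arms do not share a seed.

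mmu-miR-670-5p: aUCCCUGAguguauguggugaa
mmu-miR-670-3p: uUUCCUCAuauccauucaggagugu

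Ambra1 and Lrp4 lie 3.37 to 3.68 Mb after the KI-only feature. Ambra1 encodes a scaffold that starts autophagy, the recycling of cell contents, and over 460 coding bases it stood at 62.5, 62.3 and 55.9 CPM in WT, against 76.8 and 82.7 CPM in KI (edgeR log2 fold change 0.41, SE 0.15, adjusted p = 0.6115). A second feature over 189 of its coding bases had a log2 fold change of 0.14 (SE 0.22) and overlapping groups. Lrp4 encodes the receptor for agrin at the nerve-muscle synapse and stood at 24.3, 29.5 and 25.4 CPM in WT, against 41.3 and 35.4 CPM in KI over 1860 exon bases (edgeR log2 fold change 0.54, SE 0.21, adjusted p = 0.6634). All 3 of its tested features were higher in KI, at 0.16 to 0.54. Both KI libraries were also above all WT libraries in 1 feature each of Phf21a, Qser1, 1110051M20Rik, Nat10 and Dcaf17, at log2 fold changes of 0.20 to 0.51 and edgeR adjusted p of 0.884 to 0.984. For Phf21a, KI replicate 1 (23.8 CPM) was barely above the highest WT library (23.4 CPM). Without KI replicate 3 its log2 fold change was 0.04. The 3 tested features of Phf21a ranged from -0.02 to 0.43, with 1 lower in KI.

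Rapgef4 and Gad1, which stand for cAMP sensing and GABA synthesis here, are 2 of the most abundant named genes. Rapgef4 stood at 787.2, 913.9 and 878.7 CPM in WT, against 787.1 and 869.2 CPM in KI over 486 coding bases (edgeR log2 fold change -0.05, SE 0.10, adjusted p = 0.9994). Gad1 stood at 299.9, 229.6 and 259.4 CPM in WT, against 293.9 and 267.6 CPM in KI (edgeR log2 fold change 0.09, SE 0.13, adjusted p = 0.9994). Per kilobase of exon read Gad1 stood at 570 CPM, next to C1qtnf4 among the 34 features over 1 gene alone, and the 2 features over Celf1 at 396 and 240 CPM. Rapgef4 is not among these 34, because its feature also overlaps Rapgef4os3, and would stand at 1743 CPM per kilobase if all its reads were its own. In Gad1 the groups overlapped, and Rapgef4 differed by less than the spread between WT libraries.

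By role, no group of window genes held a feature past the threshold, and most members could not be read on their own. Of 18 genes of GABA and forebrain development 3 were tested, 1 higher and 2 lower in KI (median log2 fold change -0.20): Gad1, Pax6 and Alx4, with Alx4, a homeobox gene, at -1.13 (SE 1.23). With 1 library left out Alx4 ranged from -2.67 (without KI replicate 3) to -0.42 (without KI replicate 1). Dlx1 and Dlx2, which drive the making of GABA neurons, had no feature over their exons. Of 20 synapse and axon genes 4 were tested and all 4 were lower, with a median of -0.52: Chn1, Rapgef4, Lrrc55 and Rtn4rl2. Rtn4rl2, a Nogo receptor homologue, stood at 0.79, 11.9 and 5.05 CPM in WT, against 1.63 and 3.10 CPM in KI, so its WT libraries spread across both KI values. Without WT replicate 2 the log2 fold change of Rtn4rl2 was -0.29 and that of Lrrc55 0.27. In Chn1, Rapgef4, Rtn4rl2 and Lrrc55, WT replicate 1 was the lowest WT library and WT replicate 2 the highest. The summed cortical markers given above had the same order, and so did the summed striatal markers. The striatal sum was 8281, 10790 and 9631 CPM in WT, against 6966 and 7672 CPM in KI. Neurod2, one of the cortical markers, stood at 1.58, 32.1 and 30.0 CPM in WT, against 6.64 and 1.73 CPM in KI. The part of cortical or striatal cells in this group's values was not tested. The glial glutamate transporter gene Slc1a2 shares its feature with Pamr1 (log2 fold change -0.15, SE 0.19).

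Of 8 genes of cyclic nucleotide signalling 2 were tested: Rapgef4, as above, and the peptide receptor gene Calcrl at 0.01 (SE 0.51). Of 13 mitochondrial genes 4 were tested, 2 higher and 2 lower, with Ndufs3 as above and Mtch2, by its longest overlap, at -0.19 (SE 0.23). Of 13 genes of RNA handling and translation 3 were tested, Nat10 higher and Celf1 and Caprin1 lower, the last at -0.34 (SE 0.25; -0.60 without KI replicate 3 and -0.13 without KI replicate 1). The feature named Caprin1 covers 20 of its exon bases and 1602 bases in all, so its counts may not be those of Caprin1. Of 9 matrix and adhesion genes 5 were tested, 2 higher and 3 lower (median -0.29), with Itgav as above and Pamr1 at -0.47 (SE 0.55; -0.91 without KI replicate 1 and -0.13 without KI replicate 3). Of 12 immune and vascular genes 3 were tested and all 3 were lower (median -0.27), among them Spi1, the master transcription factor of microglia, at -0.27 (SE 0.58) and the complement inhibitor gene Serping1 at -0.59 (SE 0.75). Serping1 was -1.28 without KI replicate 3 and -0.08 without WT replicate 2, and Spi1 was -0.93 without KI replicate 3 and 0.17 without KI replicate 1. Over all tested features the median log2 fold change was 0.00.

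The features nearest to the KI-only feature on either side had mean levels of 1.49 to 19.5 CPM and overlapping groups. Before it, those over Tnks1bp1 (2 features), Lrrc55 and the pair P2rx3 and Prg3 had log2 fold changes of 0.11, -0.17, -0.65 and 0.16. The feature labelled Olfr1039 was at -0.04 (SE 0.95). After it, 4 features over Nup160, a subunit of the nuclear pore, ranged from -0.39 to 0.18. The Nup160 feature at -0.39 covers 8 exon bases of that gene and 533 bases in all. Lrrc55, an auxiliary subunit of potassium channels, stood at 0.79, 5.61 and 2.30 CPM in WT, against 2.57 and 1.11 CPM in KI. In none of these were the KI libraries beyond all WT libraries.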

How the data were processed

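Striatal RNA was sequenced in 3 WT and 2 KI libraries after an Illumina stranded mRNA preparation, per the labels' protocols. Per the file headers, the authors ran featureCounts 2.0.1, and its unnormalised counts were used as deposited: pairs counted as fragments, a fragment counted for each feature it overlaps, multi-mapped reads left out, strand ignored, annotation Ensembl release 103 of GRCm39. The aligner is not given in the sources used here, nor is the alignment's build. Overlapping and antisense genes can therefore share reads.

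On the inference that reads lie at GRCm38 positions, features were laid over GENCODE M21 exons by numeric position with bedtools 2.31.1 and named by the gene alone there or by the only protein-coding one. A gene with several features is represented by the largest overlap. Counts were filtered with filterByExpr, scaled by TMM and tested over all features with edgeR 4.0.16 (quasi-likelihood F-test, Benjamini-Hochberg, threshold 0.05) in R 4.3.3. DESeq2 1.42.0, limma 3.58.1, other scalings, no filter, a replicate block, a 10 Mb window and leaving out each library were alternatives, and the fits were checked on simulated counts. A count of 0 allows up to 0.379 to 0.455 CPM per library (3 counts, counting error only).

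Named were the KI-only feature, up to 10 genes per direction with a mean of at least 1 CPM and both KI libraries beyond WT by smallest p, the 5 nearest tested features on each side, the 6 highest coding features and 2 genes per role group. Further features were named after their values were seen. Members, lists and rules were chosen with earlier results of these data known. Marker lists were read by position: astrocyte markers (3 of 5) summed to 133.5 to 157.7 CPM in WT and 124.7 to 131.3 in KI, the microglial marker Aif1 (1 of 5) to 16.5 to 23.3 and 13.3 to 16.8 CPM, and choroid plexus markers (2 of 6) to 42.4 to 61.8 and 28.1 to 2096 CPM.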

Additional observations from a re-analysis of the deposited data

How the results depend on the processing

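Relative to 14 calls over all features, no filter gave 183, the DESeq2 Wald test 121, limma voom 52 and the replicate block 154, and leaving out 1 library gave 2 (without WT replicate 3) to 161 (without WT replicate 1). In the window, where the 1 call is the KI-only feature, no filter gave 3, the replicate block 2, limma voom 0 and features over 1 gene 0 (the KI-only feature lies over none), and leaving out 1 library gave 1 to 4 (4 without WT replicate 1). Without the KI-only feature the count of 0 became 2 without a filter (the feature without KI counts inside Itgav, picked for that pattern, is 1 of these) and 1 with the replicate block, and 0 to 3 with 1 library left out (3 without WT replicate 1). The 15 features at an unadjusted p under 0.05 became 9 within 10 Mb, where fewer features are counted. The window's median log2 fold change of 0.00 was 0.053 with unscaled totals and lay between -0.076 (without KI replicate 3) and -0.0006 with 1 library left out. The cause of these differences was not tested, and a KI library left alone is assumed to vary like WT.

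For named genes, 34 values under an alternative changed direction, with adjusted p of 0.978 or more. Direction and call were kept in 401, 3 newly passed and 1 no longer did (the KI-only feature in limma voom). The direction changed with the replicate block for P2rx3 and Prg3 (-0.50), Lrrc55 (0.30), Rtn4rl2 (0.029), Calcrl (-0.22) and Serping1 (0.19). With limma voom they were the feature labelled Olfr1039 (0.14), that over Nup160 labelled Kbtbd4 (0.020) and Calcrl (-0.051), with unscaled totals the first 2 of these (0.010 and 0.047), and without a filter Nup160 (0.001). With 1 library left out, values ranged from -1.05 to 0.79 for P2rx3 and Prg3, -0.48 to 0.52 and -0.54 to 0.15 for the Tnks1bp1 features, -1.37 to 0.27 for Lrrc55, -0.79 to 0.46 for the feature labelled Olfr1039, -0.20 to 3.28 for that inside Ptprj, -0.39 to 0.057, -1.98 to 0.36 and -0.14 to 0.085 for Nup160, -0.13 to 0.014 for Rapgef4, -0.67 to 0.46 for Calcrl, -0.58 to 0.11 for Mtch2 and -0.93 to 0.17 for Spi1. The same-numbered libraries correlated at 0.11 (replicate 1) and 0.07 (replicate 3) in their deviations from the group means; with 2 pairs this does not show pairing.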

Other observations

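Features over several genes could not be given to 1 of them. That over Cir1, Scrn3 and Sp9 had levels of 72.1, 79.7 and 85.1 CPM in WT against 46.1 and 57.0 CPM in KI, both KI libraries below WT (edgeR log2 fold change -0.61, SE 0.17, adjusted p = 0.2628). Sp9 is a transcription factor of striatal neuron development, Cir1 a corepressor partner and Scrn3 a secernin. That over Fbxo3, Lmo2, D430041D05Rik and 4931422A03Rik had 174.0, 251.4 and 184.3 CPM in WT against 140.7 and 134.4 CPM in KI (edgeR log2 fold change -0.56, SE 0.16, adjusted p = 0.3032). It passed without a filter (adjusted p = 0.01334) and without WT replicate 1 (0.02868). That over the catenin gene Ctnnd1 and Gm28635 was higher, at 52.1, 46.1 and 45.3 CPM in WT, against 59.6 and 62.5 CPM in KI (edgeR log2 fold change 0.35, SE 0.17, adjusted p = 0.7979).

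A further feature without a GRCm38 exon, labelled Ckap5 and lying inside 1110051M20Rik, had 3, 2 and 4 counts in WT against 27 and 18 in KI (edgeR log2 fold change 2.75, SE 1.14, adjusted p = 0.689). These features were chosen after their values were seen.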
